A study of Mus musculus with 15 samples.

Results

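RNA of mouse embryonic stem cells (mESC) was compared after 240 h of Smarcb1 knockdown with RNA of untreated cells sampled at the same time. The comparison rests on the 6 libraries that the labels place at 240 h, 3 of knockdown cells (kd) and 3 of control cells (ctrl), out of 15 libraries in the series. The remaining libraries hold 48 h ctrl, 48 h kd and 72 h kd cells, 3 of each. All cells belong to 81K1, a single line made from the mESC line OG2, with a cassette in the Rosa26 locus that transcribes an shRNA against Smarcb1 when doxycycline is present. The kd cells received 1 µg doxycycline per ml of medium every day and the ctrl cells received none, while both grew on gelatine in serum medium with LIF. The libraries analysed here include no line that received doxycycline without the shRNA, so effects of the drug and of the knockdown cannot be told apart. The labels do not say whether the 3 replicates of a group were separate cultures, and p-values therefore measure only the spread between these libraries, which may be technical.

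SMARCB1 is a core subunit of the BAF (SWI/SNF) complexes, which use ATP to slide or evict nucleosomes and so open enhancers and promoters. Embryonic stem cells carry a version called esBAF, which works in opposition to, and at many genes together with, the polycomb repressors PRC1 and PRC2. Biallelic loss of SMARCB1 in young children is the hallmark of rhabdoid tumours. Stem cells kept in LIF can drift between a naive state that resembles the early epiblast and a primed state that resembles the epiblast after implantation.

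The 240 h libraries held 12316539 to 14515300 reads, recovered from the deposited FPKM values. Levels below are FPKM over the whole gene span, introns included, and reads are the recovered whole reads. Smarcb1 was at 3.31, 3.55 and 3.40 FPKM in ctrl and at 0.721, 0.621 and 0.638 FPKM in kd, so every library lay on the side of its label. With 1022 to 1087 reads in each ctrl library and 216 to 236 in each kd library, Smarcb1 changed by -2.37 (log2 scale, with SE 0.07 and a limma adjusted p = 3.95e-14). The stem cell markers Pou5f1, Sox2, Nanog, Zfp42 and Esrrb were high in all 6 libraries, with at least 5293 reads each. Control replicate 3 stood apart in its mitochondrial reads, which made up 0.469% of the library against 1.17% to 1.81% in the other 5. Pairs of replicates differed by more than sampling noise, the chi-square divided by its degrees of freedom being 1.30 to 8.89, and the highest value belonged to ctrl replicates 1 and 3. As the cells were measured in bulk, fewer cells of a kind and less RNA per cell cannot be told apart.

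Prolonged knockdown was accompanied by changes in both directions. The test covered the 16633 genes that averaged 10 or more reads over the 6 libraries, and 2946 of them, or 17.7%, were called. Calls required an adjusted p under 0.05 together with a log2 fold change beyond 0.58 in size. The called genes comprised 1623 that rose (9.76%) and 1323 that fell (7.95%). More than 2-fold changes were found for 801 of the genes that rose and 566 of those that fell, and more than 4-fold changes for 180 and 93. In 2885 of the 2946 called genes the libraries of one group all lay above those of the other, as they did in 8840 genes (53.1%) of all those tested. The median log2 fold change over all genes tested was 0.008. The counts of called genes in the gene lists below stand beside these shares of 9.76% higher and 7.95% lower. Of the genes that rose, 346 averaged under 10 reads in ctrl, and of those that fell, 134 averaged under 10 reads in kd. Such genes were tested only through the group in which they were high, so their calls followed from the filter and add no support to a list's count.

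**Figure D1:**
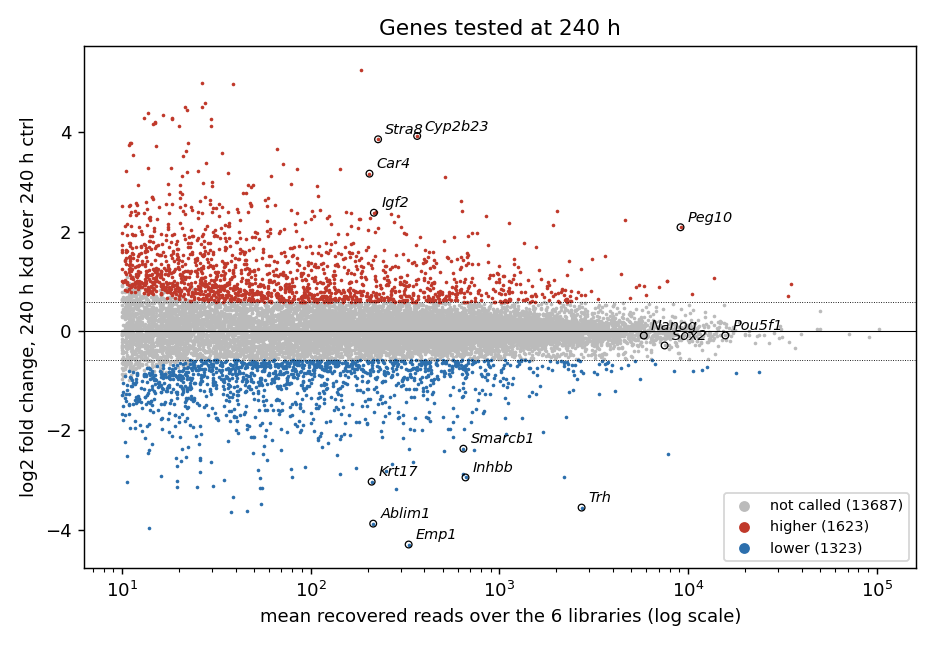
Each point is 1 of 16633 genes, with its mean recovered reads over the 6 libraries on the x axis (log scale) and its log2 fold change of 240 h kd over 240 h ctrl on the y axis. Genes called higher (1623) are red, genes called lower (1323) blue, and dotted lines mark a log2 fold change of 0.58 in either direction. Trh and Peg10 lie far from 0 at high read numbers, while Pou5f1, Sox2 and Nanog lie between the dotted lines.

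The largest rises among well-measured protein-coding genes were in Cyp2b23, Stra8, Thbs2 and Car4. Cyp2b23 (ENSMUSG00000040650.8, chr7:26665227-26686437), a cytochrome P450, had 50, 37 and 35 reads in ctrl and 635, 728 and 714 in kd. Its mean level in kd was 15.4 times that in ctrl, with log2 fold change 3.93 (SE 0.12, limma adjusted p = 9.31e-14). Stra8 (ENSMUSG00000029848.11, chr6:34920163-34939344), which retinoic acid induces in germ cells as they enter meiosis, lay at 0.134, 0.0889 and 0.102 FPKM in ctrl and at 1.51, 1.65 and 1.70 FPKM in kd. On the log2 scale Stra8 changed by 3.86 (SE 0.14, adjusted p = 7.82e-13). Groups that do not overlap were a condition for naming a gene among the 10 largest rises or falls, so their separation is no result.

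Thbs2, a matricellular thrombospondin (chr17:14665500-14694235), rose from 24, 19 and 29 reads in ctrl to 259, 251 and 274 in kd, log2 fold change 3.26 (SE 0.15, limma adjusted p = 1.64e-11). Car4, a membrane-bound carbonic anhydrase (chr11:84957786-84966044), rose from 0.457, 0.305 and 0.312 to 2.92, 3.33 and 3.57 FPKM, log2 fold change 3.17 (SE 0.15, adjusted p = 1.46e-11). The other genes among the 10 largest rises were Slc22a22 (3.09), Arhgef38 (2.92), Serpina3m (2.61), Clca3b (2.44), Prtg (2.42) and Shisa6 (2.41), given as log2 fold changes. Prtg encodes protogenin, a surface receptor of the early embryo. Slc22a22, Serpina3m and Shisa6 overlap other listed genes, and their values are uncertain because reads were counted over whole spans without regard to strand. The same limit holds for other genes named below with overlapping neighbours, among them Dnmt3b, Lef1, Tbx3, Sema3e, Igf2, H19, Hoxa3, Pcsk2, Rb1, Ccnd2, Id4, Bmp4, Eomes, Dsg2, Fn1 and Tet2. Outside this rule and chosen after its values were seen, the lincRNA gene Gm40663 (chr13:7139127-7175925) went from 7, 8 and 7 reads to 391, 330 and 362 (adjusted p = 9.40e-14). Gm40663 was tested only through its kd reads, and the size of its fold depends on the pseudocount.

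The largest falls were in Emp1, Ablim1, Trh and Ildr1. Emp1 (ENSMUSG00000030208.15, chr6:135362545-135383173), an epithelial membrane protein of the PMP22 family, had 641, 594 and 645 reads in ctrl and 35, 28 and 39 in kd. Its kd level was 4.96% of the ctrl level, log2 fold change -4.30 (SE 0.13, limma adjusted p = 5.02e-14). Ablim1, an actin-binding LIM protein (chr19:57032733-57314919), fell from 412, 412 and 376 reads to 28, 31 and 27, log2 fold change -3.88 (SE 0.12, adjusted p = 5.49e-14).

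Trh (ENSMUSG00000005892.4, chr6:92242061-92244650), the precursor of thyrotropin-releasing hormone, lay at 143, 152 and 166 FPKM in ctrl and at 12.3, 13.2 and 13.5 FPKM in kd. On the log2 scale Trh changed by -3.55 (SE 0.06, limma adjusted p = 2.85e-17). Cpe, the carboxypeptidase that trims neuropeptide precursors, fell by 2.76 on the log2 scale (adjusted p = 4.20e-11). Of the 8 genes tested from a list for neuropeptides and their processing, Trh and Cpe fell and Pcsk2, a prohormone convertase, rose by 1.69. Krt17, a type I keratin (chr11:100256217-100261029), fell from 362, 357 and 396 reads to 49, 42 and 56, log2 fold change -3.03 (SE 0.12, adjusted p = 3.59e-12). Inhbb, the activin B subunit, lay at 13.6, 13.7 and 13.7 FPKM in ctrl and at 2.06, 1.69 and 1.56 FPKM in kd, log2 fold change -2.95 (SE 0.08, adjusted p = 3.58e-14). Inhbb was thus at 13% of the ctrl level. The list of the 10 largest falls also held Ildr1 (-3.18), a tricellular junction protein, Cobl (-2.95), an actin nucleator whose span overlaps Gm12002, Csrnp3 (-2.89), Laptm5 (-2.87) and Coro2b (-2.81), as log2 fold changes.

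**Figure D2:**
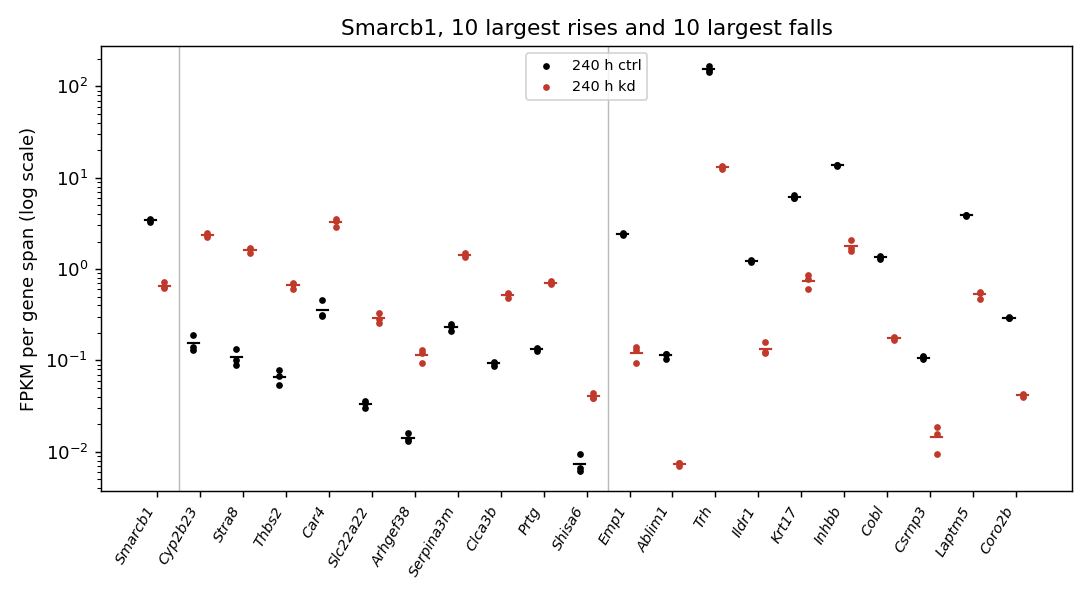
FPKM per gene span (y axis, log scale) in the 3 libraries of 240 h ctrl (black) and of 240 h kd (red) for Smarcb1, the 10 largest rises and the 10 largest falls, with a bar at each group mean. Apart from Smarcb1, genes were chosen among those whose groups do not overlap. Trh is at 143 to 166 FPKM in ctrl and 12.3 to 13.5 FPKM in kd.

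The core pluripotency genes were close to their control level, while part of the naive network was lower. None of the 5 core factors tested was called, with a median log2 fold change of -0.09. Pou5f1 (Oct4) lay at 238, 260 and 282 FPKM in ctrl and 239, 250 and 244 in kd, overlapping groups. Nanog lay at 62.8, 64.8 and 64.5 FPKM in ctrl and 59.1, 61.5 and 59.7 in kd, below ctrl in all 3 libraries but with a log2 fold change of only -0.09 (SE 0.04, limma adjusted p = 0.069). Sox2 had a log2 fold change of -0.29 (adjusted p = 1.8e-05), under the fold limit. Of 14 naive genes, 5 fell and 1 rose, and the median was -0.40.

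Klf4, a transcription factor under LIF control, fell from 80.6, 81.8 and 87.9 to 38.6, 35.1 and 34.7 FPKM, log2 fold change -1.21 (SE 0.05, limma adjusted p = 3.24e-12). Prdm14, which holds down the de novo methyltransferases and FGF signalling in naive cells, fell from 425, 417 and 488 reads to 209, 247 and 198, log2 fold change -1.16 (SE 0.08, adjusted p = 3.84e-09). Tbx3 (-1.12), Esrrb (-0.80) and Zfp42 (-0.58, at the fold limit) also fell, and Dppa3 (Stella) rose by 0.71, but by 0.18 against the 48 h ctrl libraries. Zfp42 was under the limit without ctrl replicate 3 (-0.55) or kd replicate 2 (-0.57) and after quantile normalization (-0.57). Of 11 primed epiblast genes, 4 rose, namely Fgf5 (2.08), Dnmt3a (1.51), Sall2 (1.38) and Dnmt3b (0.90), and 2 fell, namely Lef1 (-1.90) and Zic5 (-0.64). Fgf5 rested on few reads, 18, 13 and 5 in ctrl and 63, 55 and 46 in kd. Otx2, a driver of the primed state, had a log2 fold change of 0.48 (adjusted p = 0.00277) and was not called.

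Genes for the de novo DNA methyltransferases Dnmt3a and Dnmt3b and for their partner Dnmt3l rose. Dnmt3a, one of the de novo methyltransferases, lay at 1.26, 1.29 and 1.36 FPKM in ctrl and at 3.60, 3.73 and 3.74 FPKM in kd, log2 fold change 1.51 (SE 0.04, limma adjusted p = 3.58e-14). Dnmt3l, their catalytically inactive partner, rose from 8.92, 9.56 and 10.1 to 20.5, 21.5 and 20.8 FPKM (1.14, SE 0.05, adjusted p = 3.59e-12), although its span overlaps Aire. Dnmt3b rose from 8.04, 7.89 and 7.89 to 14.8, 14.9 and 14.8 FPKM, log2 fold change 0.90 (adjusted p = 4.68e-12). Groups were far apart in each of the 3 genes. Dnmt1, which copies methylation at replication, had a log2 fold change of -0.09 (adjusted p = 0.0901). Among the TET dioxygenases, which oxidise methylcytosine, Tet2 fell by 0.86 and Tet3 rose by 0.75 on the log2 scale, but against the 48 h ctrl libraries Tet2 was at -0.40 and not called. Of the 9 genes in the list for DNA methylation and demethylation, 4 rose and 1 fell, and the median was -0.09. DNA methylation itself was not measured in these libraries.

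Retinoic acid binds RAR and RXR receptors, which sit on paired half-sites, and it switches on genes that degrade it, foremost Cyp26a1. Cyp26a1 had 2, 0 and 0 reads in ctrl and 35, 53 and 40 in kd (limma adjusted p = 1.19e-07), and no fold change is given because ctrl was at the limit of detection. Its promoter is shown with the retinoic acid response element in capitals. The search was for a direct repeat with half-site AGGTCA, or AGTTCA, or GGGTCA, or GGTTCA, and with 5 bases between the half-sites, on both strands, in the 250 bases before the RefSeq start (GRCm38.p6). The sequence is chr19:37697558-37697797 on the plus strand, trimmed at the start of the listed gene, and the match lies on the minus strand with its last base 16 bases before the RefSeq start.
Cyp26a1: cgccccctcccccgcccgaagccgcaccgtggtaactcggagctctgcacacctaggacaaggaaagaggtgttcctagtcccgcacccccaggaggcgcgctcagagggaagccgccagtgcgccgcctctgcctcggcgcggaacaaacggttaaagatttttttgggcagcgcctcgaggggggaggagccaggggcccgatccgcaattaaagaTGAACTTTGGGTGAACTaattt
Such a repeat stood in 29 of 32851 RefSeq promoters (0.0883%) and in 2 of the 10 genes of the retinoic acid list that had a promoter entry, Cyp26a1 and Rarb. Rarb had too few reads to be tested, and the promoter of Stra8 held no match in this window.

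Of 11 retinoic acid genes tested, 3 rose and 3 fell, with a median log2 fold change of 0.30. Cyp26a1, Stra8 and Tgm2 rose, Cyp26a1 being tested only through its kd reads. Tgm2, a transglutaminase and target of the pathway, went from 0.733, 0.792 and 0.848 to 2.09, 2.29 and 2.08 FPKM, log2 fold change 1.44 (SE 0.07, limma adjusted p = 2.32e-11), with a span that overlaps Rprd1b. Crabp1, which carries retinoic acid in the cytosol, fell from 241, 246 and 283 reads to 73, 86 and 44 (-2.09, SE 0.17, adjusted p = 2.30e-08). The receptor gene Rara (-0.60) and Aldh1a2 (-0.75), which makes retinoic acid, fell as well. Rara was under the limit without kd replicate 1 (-0.54), against the 48 h ctrl libraries (-0.56) and on log2 FPKM (-0.56). Aldh1a2 lost its call without ctrl replicate 2 (-0.54), kd replicate 1 (-0.67) or kd replicate 3 (-0.69), and with a pseudocount of 1 RPM (-0.51). The libraries of the 2 groups did not overlap in any of these 6 genes, as was the case in 2885 of all 2946 called genes. Cyp24a1, which degrades vitamin D and lies outside the lists, was singled out after its values were seen. Cyp24a1 had 0, 1 and 0 reads in ctrl and 46, 59 and 53 in kd (adjusted p = 6.51e-09), and it overlaps Pfdn4. Like Cyp26a1, Cyp24a1 was tested only through its kd reads, so its call followed from the filter.

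The signalling pathways were examined through the RNA of their targets, effectors and other members, and pathway activity was not measured. For Wnt, 0 of 10 genes rose and 3 fell, namely Lef1 (-1.90), Sp5 (-1.38) and Axin2 (-1.21). Axin2, the negative feedback gene of the pathway, had 169, 177 and 127 reads in ctrl and 62, 89 and 72 in kd (SE 0.15, limma adjusted p = 3.62e-06). For Hedgehog, 3 of 11 rose and 1 fell. Gli1, its transcriptional effector and target, rose from 672, 634 and 575 reads to 1836, 1764 and 1653 (1.34, SE 0.07, adjusted p = 6.29e-11), with overlaps with Arhgap9 and Gm47200. The receptor gene Ptch1 (0.79), itself a target of the pathway, also rose, and the ligand trap Hhip fell by 0.65 on the log2 scale, a call lost without ctrl replicate 1 (-0.49) or kd replicate 2 (-0.51) and with a pseudocount of 1 RPM (-0.56). The medians of the lists were -0.17 for Wnt and 0.12 for Hedgehog.

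Among 13 BMP and Id genes, 2 rose and 2 fell. Id3, a BMP target that blocks basic helix-loop-helix factors, lay at 6.23, 6.25 and 6.92 FPKM in ctrl and at 21.1, 20.5 and 18.7 FPKM in kd, log2 fold change 1.63 (SE 0.08, limma adjusted p = 1.78e-11). Smad6, an inhibitor of the pathway, rose by 1.69 (SE 0.11, adjusted p = 1.97e-09). Bmp4 (-0.89) and Id4 (-1.72), in contrast, fell. In the Nodal list of 12 genes the ligand gene Nodal rose from 658, 687 and 790 to 1300, 1487 and 1379 reads (0.83), while the receptor gene Acvr1b (-0.68) and the inhibitor gene Lefty2 (-0.85) fell. Of 15 FGF and ERK feedback genes, 5 rose, Dusp6 (0.99) and Fgfr1 (0.81) among them, and Spry1 fell by 0.76. The LIF and Stat3 list had 2 rises (Bcl3 and Pim1) and 1 fall (Pim3) among 11 genes.

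Genes of a 2-cell-like state, which marks a rare and transient fraction of mESC cultures, were near 0 in ctrl and detected in kd. Of 18 genes in the list 6 passed the read minimum, and all 6 were called higher. These genes passed the minimum only through their kd reads, so the count is no support of its own. Zscan4d, which is transcribed at the 2-cell stage, had 1 read in each ctrl library and 82, 80 and 67 in kd (limma adjusted p = 3.63e-10). Zscan4e had 0 reads in each ctrl library and 28, 27 and 27 in kd. Zscan4 and Usp17l genes are near-identical copies, and reads of a copy cannot be assigned with certainty. Of 8 maternal-effect and Dppa genes tested, 4 rose and none fell, including Tle6 (1.36) and Khdc3 (1.29, overlapping Gm20509), which encode parts of the subcortical maternal complex.

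Germline genes rose more often than they fell. Of 16 tested, 9 rose and 1 fell, beside 9.76% and 7.95% of all genes tested, and the median log2 fold change was 0.60. Many genes of this kind are held silent outside the germline by DNA methylation and by the repressor complex PRC1.6, which binds the E-box CACGTG. This palindrome was searched in the 250 bases before the RefSeq start, where it stood in 1854 of 27025 genes (6.86%). It stood in 11 of the 19 germline genes with a promoter entry (57.9%), of which 10 were tested and 6 rose, and 3 of the 5 tested genes without it rose and 1 fell, the same share of rises. Promoters of 3 genes that rose are shown because they hold the motif (in capitals), each read in the direction of transcription and up to the gene start. They are chrX:134476491-134476740 (minus strand) for Taf7l, chr19:56825959-56826208 (plus strand) for Tdrd1 and chr3:102936101-102936350 (minus strand) for Sycp1. The last base of the motif lies 44, 6 and 89 bases before the RefSeq start, in this order.
Taf7l: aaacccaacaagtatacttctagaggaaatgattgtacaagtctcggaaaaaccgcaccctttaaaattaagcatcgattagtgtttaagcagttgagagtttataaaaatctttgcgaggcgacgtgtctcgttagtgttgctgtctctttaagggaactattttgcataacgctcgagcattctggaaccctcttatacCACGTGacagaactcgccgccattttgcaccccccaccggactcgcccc
Tdrd1: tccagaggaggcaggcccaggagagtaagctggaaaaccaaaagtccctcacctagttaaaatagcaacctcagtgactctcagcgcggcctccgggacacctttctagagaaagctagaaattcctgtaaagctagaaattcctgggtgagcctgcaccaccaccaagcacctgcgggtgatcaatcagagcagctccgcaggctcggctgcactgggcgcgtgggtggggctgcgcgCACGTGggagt
Sycp1: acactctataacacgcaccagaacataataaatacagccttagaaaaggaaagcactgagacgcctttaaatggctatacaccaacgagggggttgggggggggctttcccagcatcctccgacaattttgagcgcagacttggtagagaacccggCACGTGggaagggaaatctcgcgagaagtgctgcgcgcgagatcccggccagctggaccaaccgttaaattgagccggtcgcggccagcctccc

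Taf7l, a testis paralogue of a TFIID subunit, had 36, 29 and 39 reads in ctrl and 125, 130 and 116 in kd, log2 fold change 1.67 (SE 0.15, limma adjusted p = 8.86e-08). Tdrd1, of the piRNA pathway, rose from 34, 39 and 47 reads to 89, 104 and 103 (1.15, SE 0.16, adjusted p = 1.13e-05). Sycp1, of the synaptonemal complex, rose from 144, 116 and 130 to 270, 236 and 244 reads (0.80, SE 0.11, adjusted p = 1.13e-05). Groups did not overlap in these genes, as was the case in 2885 of all 2946 called genes. Ddx4 (Vasa) and Dazl also rose, by 0.66 and 0.61. Ddx4 was under the limit on log2 FPKM (0.576). Dazl was under the limit without kd replicate 3 (0.54), with a pseudocount of 1 RPM (0.52) and against the 48 h ctrl libraries (0.39). Sycp3 and Mael also hold the motif and were not called, with log2 fold changes of -0.01 and 0.51 (adjusted p = 0.97 and 0.00554).

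Lineage genes were called in both directions. Of 14 trophoblast genes tested, 7 rose and 4 fell, and 3 of the 7 (Hand1, Cdx2 and Krt7) were tested only through their kd reads. Hand1 had 5, 8 and 2 reads in ctrl and 40, 56 and 50 in kd (limma adjusted p = 1.80e-06), and Cdx2 had 4, 8 and 5 reads in ctrl and 28, 32 and 28 in kd (adjusted p = 2.98e-05). These 2 regulators of trophoblast differentiation were thus detected at low levels. Tead4, which acts upstream of Cdx2 in the embryo, fell from 504, 426 and 461 reads to 87, 81 and 67 (-2.69, SE 0.11, adjusted p = 3.42e-12), and Eomes fell by 1.03. The trophoblast list summed to 143 to 149 RPM (reads scaled to equal library depth) in ctrl and to 192 to 193 RPM in kd.

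Keratins split by chromosomal cluster. On chromosome 15, Krt7 (1.78), Krt8 (1.30) and Krt18 (1.99) rose, while on chromosome 11 Krt19 (-1.27), Krt17 (-3.03) and Krt42 (-2.20) fell, as log2 fold changes. Krt8 and Krt18 form the filament pair of simple epithelia. Krt18 had 69, 76 and 101 reads in ctrl and 353, 359 and 364 in kd (SE 0.12, limma adjusted p = 3.82e-10). Krt7 rested on 5 to 9 reads per ctrl library and was tested only through its kd reads. Of 7 keratins tested, 6 were called, in either direction. The groups did not overlap in any of the 6, as was the case in 2885 of all 2946 called genes.

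Of 13 primitive endoderm genes, 6 rose and 1 fell. Gata6, which specifies the lineage, rose from 19, 18 and 12 reads to 42, 35 and 40 (1.08, SE 0.24, limma adjusted p = 0.00147), while Sox7 fell by 1.23. Gata4 had a log2 fold change of 0.35 and was not called. The summed level of this list was 1055 to 1094 RPM in ctrl and 1045 to 1082 in kd, overlapping ranges. Of 5 mesoderm genes tested, 3 rose and 1 fell, and Hand1, 1 of the 3, was tested only through its kd reads.

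Cell junction genes were called in both directions, with the cadherin genes Cdh1, Cdh3 and Dsg2 and 5 tight junction genes among those that fell. Cdh1 (E-cadherin) lay at 8.41, 8.43 and 8.70 FPKM in ctrl and at 4.44, 4.45 and 4.26 FPKM in kd, log2 fold change -0.96 (SE 0.04, limma adjusted p = 3.93e-12). Cdh3 (P-cadherin, -1.24) and the desmosomal cadherin gene Dsg2 (-1.82) also fell, and Cdh2 (N-cadherin) had overlapping groups at a log2 fold change of -0.06. Several protocadherin genes rose, with Pcdh7 at 2.0 and Pcdh17 at 1.80. In the cadherin superfamily list 7 of 19 genes rose, 2 of them tested only through kd reads, and 4 fell. Of 18 tight junction genes, 13 were not called, none rose and 5 fell, namely Cldn7 (-1.32), Cldn6 (-1.30), Cldn4 (-1.26), Tjp3 (-1.19, overlapping Apba3) and Ocln (-0.70). Cldn4 had 1017, 1093 and 1331 reads in ctrl and 538, 545 and 487 in kd.

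Of 15 collagen genes, 9 rose, 1 fell and 5 were not called, with a median log2 fold change of 0.62. Of the 9, Col1a2 and Col12a1 were tested only through their kd reads. Col1a1, the main chain of type I collagen, rose from 52, 58 and 55 reads to 201, 200 and 239, log2 fold change 1.79 (SE 0.12, limma adjusted p = 3.09e-09). Col1a1 also differed between the ctrl groups, being 0.64 higher at 240 h than at 48 h on the log2 scale. Col1a2 rose from 6, 5 and 5 reads to 22, 28 and 30. Among 14 basement membrane genes 1 rose, tested only through its kd reads, and 4 fell. Lama1, a laminin chain of the early embryo, fell from 1697, 1618 and 1830 reads to 416, 477 and 457 (-2.06, SE 0.05, adjusted p = 1.23e-14). Fn1 (fibronectin), outside the lists and chosen after its values were seen, fell from 13564, 12695 and 12816 reads to 2590, 2602 and 2535 (-2.47, SE 0.05, adjusted p = 1.29e-16).

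Vim (vimentin), an intermediate filament gene of mesenchymal cells, lay at 13.2, 14 and 14.4 FPKM in ctrl and at 36.3, 38.7 and 38.6 FPKM in kd, log2 fold change 1.45 (SE 0.05, limma adjusted p = 1.41e-13). Tagln (1.08, overlapping Pcsk7) and Myl9 (1.37) rose, and Acta2 had 0, 4 and 4 reads in ctrl and 30, 42 and 29 in kd. Of 30 genes for actin, myosin and actin binding, 8 rose, 1 fell and 21 were not called, and 1 in each direction (Acta2 and Myl7) was tested only through 1 group. Markers of fibroblasts summed to 11.5 to 12.7 RPM in ctrl and 25.2 to 28.9 in kd. In this list 5 of 11 genes were tested, and 3 rose (Col1a2, Col1a1 and Twist1, the last not called without kd replicate 2, at 0.58, or with a pseudocount of 1 RPM, at 0.56). Endothelial and blood markers summed to 17.5 to 21.5 RPM in ctrl and 5.99 to 6.90 in kd. Of the 11 fibroblast markers 2 had no read in any ctrl library and 0 had none in kd, and of the 9 endothelial and blood markers 2 and 4 had none. The part of these markers in the matrix and actin results was not tested.

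**Figure D3:**
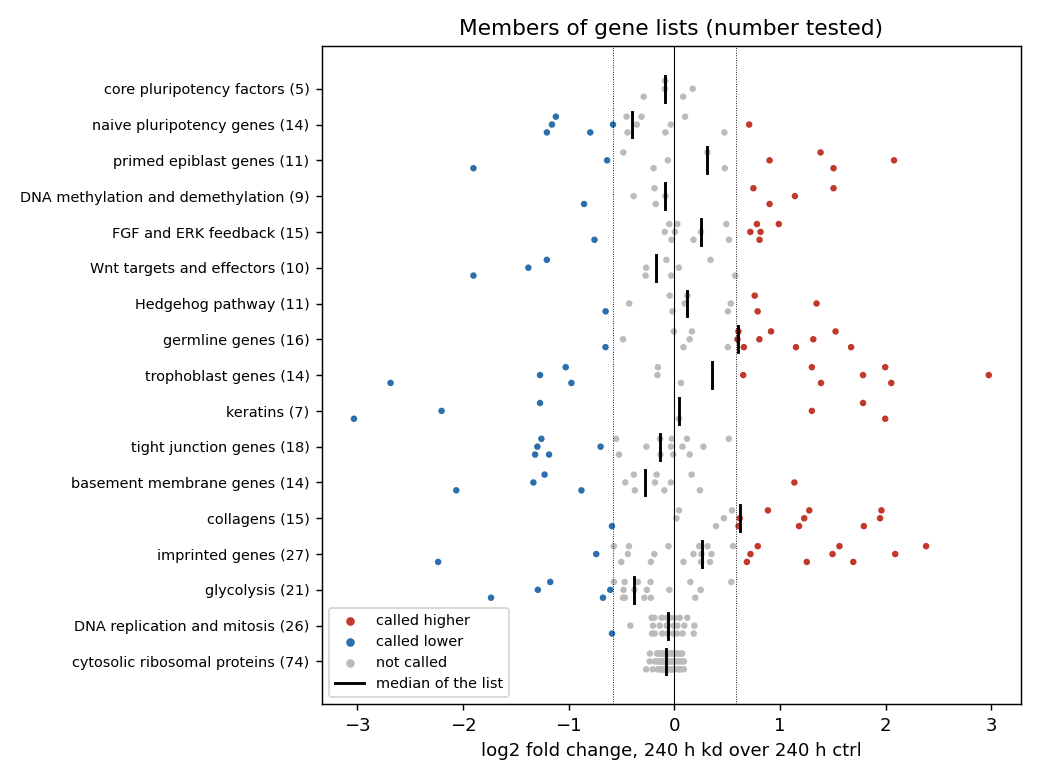
Each point is a gene of the list named on the left, with its log2 fold change of 240 h kd over 240 h ctrl on the x axis, and the number tested in parentheses. Red points were called higher, blue points lower and grey points were not called, and black bars mark the list medians. The collagen and germline medians lie at 0.62 and 0.60, while the 74 ribosomal protein genes lie between -0.27 and 0.09.

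Genes of nervous system development were called in both directions. Of 11 neural progenitor genes, 5 rose and none fell, and 3 of the 5 were tested only through their kd reads. Sox1, an early neural transcription factor, had 318, 330 and 301 reads in ctrl and 948, 1075 and 1068 in kd (1.56, SE 0.06, limma adjusted p = 3.89e-12), and its span overlaps Gm25239 and Sox1ot. Nes (nestin) rose by 0.65. Of 30 neuronal and synaptic genes, 5 rose and 7 fell, with Nefl (-1.29, overlapping Nefm) and Gap43 (-0.97) among those that fell. The transcription factor genes Insm1 and Neurog3, of neuroendocrine differentiation, were chosen after their values were seen. Insm1 rose from 70, 59 and 63 reads to 331, 379 and 329 (2.28, adjusted p = 1.25e-11), and Neurog3 from 4, 6 and 8 reads to 45, 52 and 50 (adjusted p = 3.21e-07, overlapping Fam241b). Neurog3 was tested only through its kd reads.

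Axon guidance genes were called on the side of the ligands and of the receptors. Of 28 ligand genes, 10 rose and 3 fell, and of 24 receptor genes, 5 rose and 5 fell, with 1 ligand and 2 receptor genes among the rises tested only through kd reads. Sema3e, a secreted semaphorin, rose from 374, 349 and 399 reads to 1844, 1958 and 1808 (2.18, SE 0.05, limma adjusted p = 9.13e-15). The ephrin gene Efnb2 rose by 1.46, while the guidance cue Slit2 and its receptor gene Robo1 fell, both by 1.45. Nrp2, a semaphorin co-receptor, fell from 623, 595 and 618 reads to 167, 165 and 171 (-2.0, SE 0.07, adjusted p = 9.82e-13). Of 39 Hox genes only 7 had enough reads, and of these 3 rose and none fell. All 3 were tested only through their kd reads, Hoxa3 (1.69) and Hoxc5 (1.61) among them.

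Of 27 imprinted genes, which are expressed from one parental allele, 9 rose and 2 fell, beside 9.76% and 7.95% of all genes tested. Of these, Dlk1 was tested only through its kd reads and Slc22a18 only through its ctrl reads. Peg10, a retrotransposon-derived gene needed for the placenta, lay at 19.3, 19.7 and 19.1 FPKM in ctrl and at 83.9, 80.5 and 83.5 FPKM in kd, log2 fold change 2.09 (SE 0.04, limma adjusted p = 1.29e-16). Igf2, a fetal growth factor, rose from 65, 55 and 71 reads to 383, 356 and 367 (2.38, SE 0.11, adjusted p = 1.63e-11), and the noncoding H19 from the same domain rose from 176, 212 and 218 to 527, 634 and 735 reads (1.5). These libraries do not show which parental allele the reads came from. Slc22a18 had 22, 17 and 13 reads in ctrl and 6, 3 and 1 in kd. Dlk1 rose by 1.69, and it was 1.01 lower in 240 h ctrl than in 48 h ctrl on the log2 scale.

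Called genes also lay side by side. Runs of 3 or more neighbouring protein-coding genes that were called in the same direction, with spans that do not overlap, numbered 50, of which 32 rose and 18 fell, and they held 161 genes. In 18 of the 50 runs at least 1 member, 29 genes in all, was tested only through the group in which it was high. A run of 5 on chromosome 7, the longest by count, held Zscan4 copies whose reads cannot be told apart and which were tested only through their kd reads, so its length is uncertain. Col1a2, Casd1, Sgce and Peg10 rose together on chromosome 6, with log2 fold changes of 1.95, 0.65, 1.56 and 2.09, Col1a2 being tested only through its kd reads and Casd1 being under the limit without ctrl replicate 3 (0.57) and against the 48 h ctrl libraries (0.54). Trh, Prickle2 and Adamts9 fell together on chromosome 6, and Hap1, Jup, P3h4 and Fkbp10 on chromosome 11, close to the keratin run. Jup, which encodes plakoglobin of desmosomes and adherens junctions, fell from 1879, 1951 and 2110 reads to 811, 942 and 886. The number of runs was not set against chance.

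No call was made in 3 lists of housekeeping genes. None of 24 cholesterol genes, 29 nuclear genes of the respiratory chain and 74 cytosolic ribosomal protein genes was called, with medians of -0.18, -0.03 and -0.08. Of 26 replication and mitosis genes, 1 was called, Pcna at -0.59, and it was under the limit without ctrl replicate 2 (-0.58) or 3 (-0.55). Among 17 G1 regulators, Ccnd1 (cyclin D1, a BAF-linked cell cycle gene in rhabdoid tumours) fell from 25.4, 25.4 and 28.3 to 10.9, 11.9 and 12.1 FPKM (-1.18, SE 0.05, limma adjusted p = 1.09e-11), although its span overlaps LTO1. Ccnd2 (-0.81) and Cdkn1b (-0.79) fell, and Rb1 (0.77) and Cdkn2b (0.91, tested only through its kd reads) rose. The call of Cdkn2b was lost without ctrl replicate 1 (0.64), kd replicate 1 (0.83) or kd replicate 2 (0.83), with a pseudocount of 1 RPM (0.50), with no read minimum (0.91) and after quantile normalization (0.73). Cdkn1a and Cdkn2a, which encode p21 and p16 with p19Arf, had log2 fold changes of 0.46 and 0.52 and were not called. Cdkn2a was over the limit and called without ctrl replicate 2 (0.66). Of 17 genes of p53 and its targets, 3 rose and none fell. Mdm2 was among the 3 (0.60), but under the limit without ctrl replicate 3 (0.56) or kd replicate 1 (0.58). The called share of this list, 17.6%, is near the 17.7% over all genes tested. Of all genes tested, 9.76% were called higher and 7.95% lower. Myc rose by 0.95 and Mycl fell by 1.22.

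Of 21 glycolysis genes, none rose and 5 fell, with a median log2 fold change of -0.38. Pfkp, a phosphofructokinase, fell from 3602, 3433 and 3098 reads to 1051, 1157 and 1131 (-1.74, SE 0.06, limma adjusted p = 2.16e-13), and Aldoc (-1.29), Ldhb (-1.18), Pgk1 (-0.68) and Hk2 (-0.61) fell as well. Hk2 was under the limit without ctrl replicate 1 (-0.56) or kd replicate 1 (-0.58), and against the 48 h ctrl libraries (-0.51). Pfkp overlaps Pitrm1. Of 9 genes of the mitochondrial genome, 5 rose, but these values moved with ctrl replicate 3. mt-Nd2 reached 12378 and 9916 reads in ctrl replicates 1 and 2, 4186 in ctrl replicate 3, and 21594, 17337 and 16514 in kd. Without ctrl replicate 3 the log2 fold change of mt-Nd2 was 0.575 in place of 1.06, under the fold limit, and the call was also lost on log2 FPKM (adjusted p = 0.114) and without the variance trend (adjusted p = 0.104).

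Few genes for other subunits of BAF and polycomb complexes were called. Of 28 genes for subunits of BAF, PBAF and ncBAF, 3 fell and none rose. Apart from Smarcb1 these were Bcl11b (-0.96) and Smarcd3 (-0.76, overlapping Chpf2). Smarca4, the ATPase of the complex, lay at 5.11, 4.90 and 5.20 FPKM in ctrl and 5.03, 5.04 and 5.11 in kd, overlapping groups with a log2 fold change that rounds to 0. Ezh2, the PRC2 methyltransferase, had a log2 fold change of -0.19 (limma adjusted p = 0.00147), under the fold limit. Of 12 PRC2 genes, Aebp2, an accessory subunit, rose from 1.99, 2.00 and 1.76 to 4.32, 4.06 and 4.18 FPKM (1.13, SE 0.05, adjusted p = 1.46e-11). Of 18 PRC1 genes, Bmi1 rose by 0.96.

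The 240 h effect was set against the effect at 48 h to see which changes belong to prolonged knockdown. At 48 h 1486 of 16108 genes were called. Of the 240 h calls, 793 were also called at 48 h in the same direction, 57 in the opposite direction, and 1774 were tested but not called at 48 h. A gene called at one time only is not shown to differ between times, so the difference was tested by an interaction term over 12 libraries. This term called 1727 of 16403 genes (10.5%), 897 with an effect higher at 240 h and 830 with an effect lower. Of the 2946 genes called at 240 h, 1124 also passed it. Smarcb1 itself had an interaction of 0.13 on the log2 scale (limma adjusted p = 0.648), with levels of 0.647 ± 0.161 FPKM at 48 h, 0.564 ± 0.0662 at 72 h and 0.660 ± 0.0531 at 240 h in kd (SD, n = 3 each).

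Several genes had their highest level at 240 h. Dnmt3a had mean levels of 1.59 ± 0.0296, 1.37 ± 0.0390 and 3.69 ± 0.0781 FPKM in kd at 48 h, 72 h and 240 h, and 1.31 and 1.30 FPKM in ctrl at 48 h and 240 h. Dnmt3l followed with 9.15 ± 1.05, 7.69 ± 0.487 and 21 ± 0.515 FPKM, Vim with 11.5 ± 1.14, 10.9 ± 0.466 and 37.9 ± 1.34, and Peg10 with 23.5 ± 0.460, 15.5 ± 0.0188 and 82.6 ± 1.87 (SD, n = 3 each). In these genes the 240 h kd libraries lay above every other library of the series. Id3 was lower than ctrl at 48 h, at 4.34 ± 0.522 FPKM, and rose to 20.1 ± 1.23 at 240 h. Their interactions, on the log2 scale, were 1.23 for Dnmt3a, 1.24 for Dnmt3l, 1.61 for Vim, 1.53 for Peg10 and 2.28 for Id3, all called.

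Other genes moved step by step. Inhbb was at 13.3 ± 0.896, 4.33 ± 0.195 and 1.77 ± 0.259 FPKM in kd at 48 h, 72 h and 240 h, and Krt17 at 5.21 ± 0.665, 2.43 ± 0.156 and 0.743 ± 0.129. Trh went through 88.4 ± 12.3 and 42.3 ± 1.24 to 13 ± 0.624 FPKM, and Car4 through 1.01 ± 0.147 and 1.83 ± 0.0843 to 3.27 ± 0.326 FPKM (SD, n = 3 each). Emp1, by contrast, was already at 0.102 ± 0.00374 FPKM at 72 h against 0.120 ± 0.0238 at 240 h. The 72 h libraries have no control of their own here, and these levels are given as a description.

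Among the genes whose effect weakened or changed direction was Nkx6-3. Nkx6-3, a homeobox gene, stood at 4.27 ± 0.50 FPKM in kd and 1.16 ± 0.0804 in ctrl at 48 h, but at 0.480 ± 0.0576 in kd and 1.80 ± 0.282 in ctrl at 240 h (SD, n = 3 each). Its interaction of -3.72 (SE 0.19, limma adjusted p = 3.40e-10) was the lowest among protein-coding genes averaging 100 or more reads, predicted genes left out, and the gene was 0.62 higher in 240 h ctrl than in 48 h ctrl on the log2 scale. Tgm2 was higher than ctrl at 48 h and 240 h, and its level in kd went from 6.22 ± 0.702 FPKM at 48 h and 10.2 ± 0.340 at 72 h to 2.15 ± 0.121 at 240 h. Kirrel2 and Nphs1, neighbouring genes of the nephrin family, were higher in kd at 48 h by 0.81 and 0.59 and lower at 240 h by 0.93 and 0.89 on the log2 scale.

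**Figure D4:**
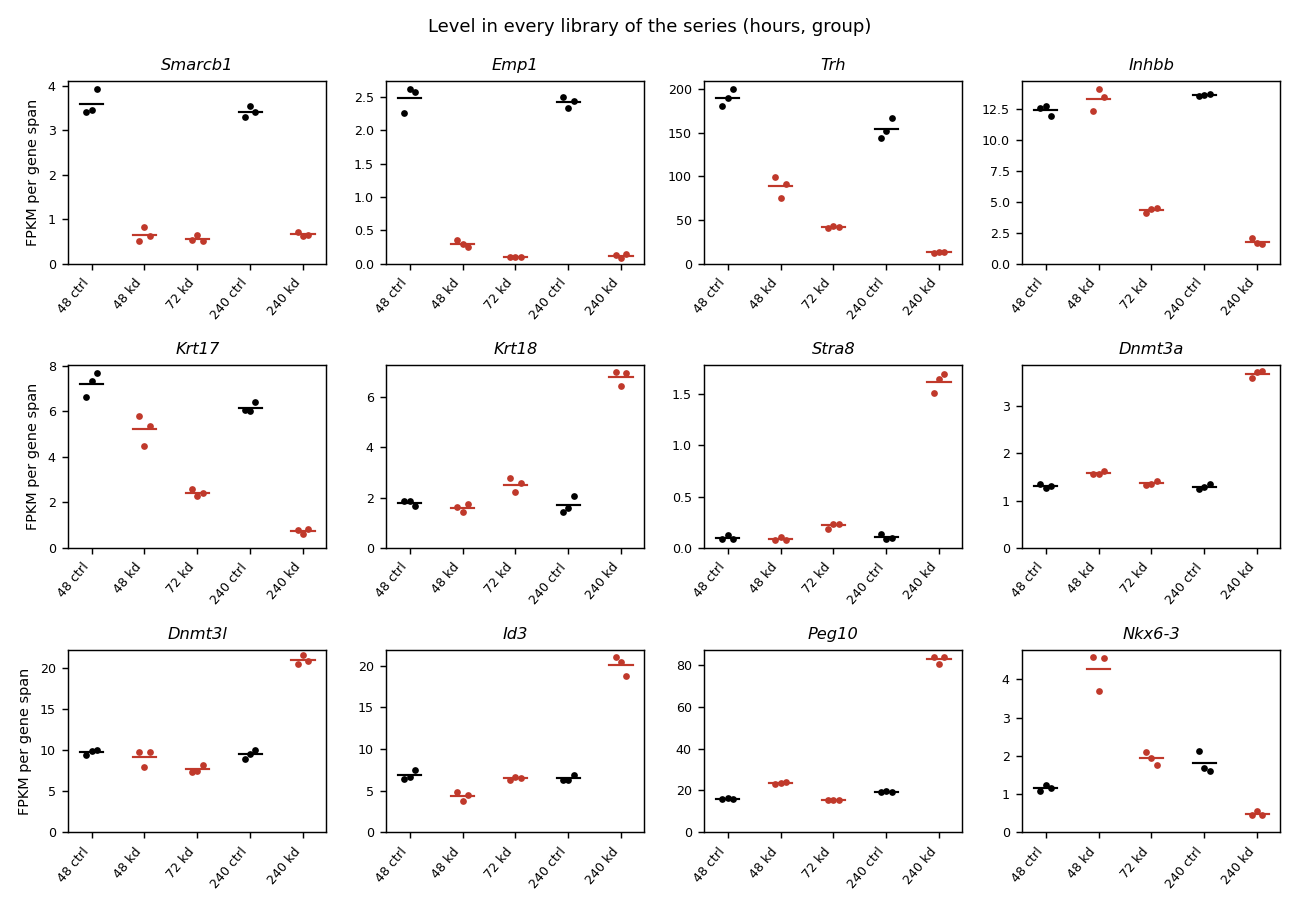
FPKM per gene span (y axis, from 0) of 12 genes in all 15 libraries, with untreated groups in black, knockdown groups in red and a bar at each mean of 3. Smarcb1 is low in the 3 knockdown groups alike, Inhbb and Krt17 fall stepwise, and Dnmt3a, Dnmt3l, Id3 and Peg10 are highest at 240 h.

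Among the same protein-coding genes, the largest positive interactions were in Stra8 (4.0), Cyp2b23 (3.62), Mep1b (2.66), Peg12 (2.43) and Khdc3 (2.40). Stra8 had 0.0909 ± 0.0176 FPKM at 48 h and 0.220 ± 0.0281 at 72 h in kd, against 1.62 ± 0.0961 at 240 h (SD, n = 3 each). After Nkx6-3, the most negative were in Inhbb (-3.04), Serpinb6c (-2.59), Krt17 (-2.56) and Lgals9 (-2.55). For Lama1 and Sox1 the effects at the 2 times did not differ beyond the test, with interactions of -0.03 (limma adjusted p = 0.823) and 0.25 (adjusted p = 0.105). The untreated cells changed less between the times: 240 h ctrl against 48 h ctrl gave 221 calls among 16215 genes (1.36%), 139 higher and 82 lower. This count was 125 and 95 without 48 h ctrl replicates 2 and 3. Of the 2946 genes called at 240 h, 71 were among these.

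**Figure D5:**
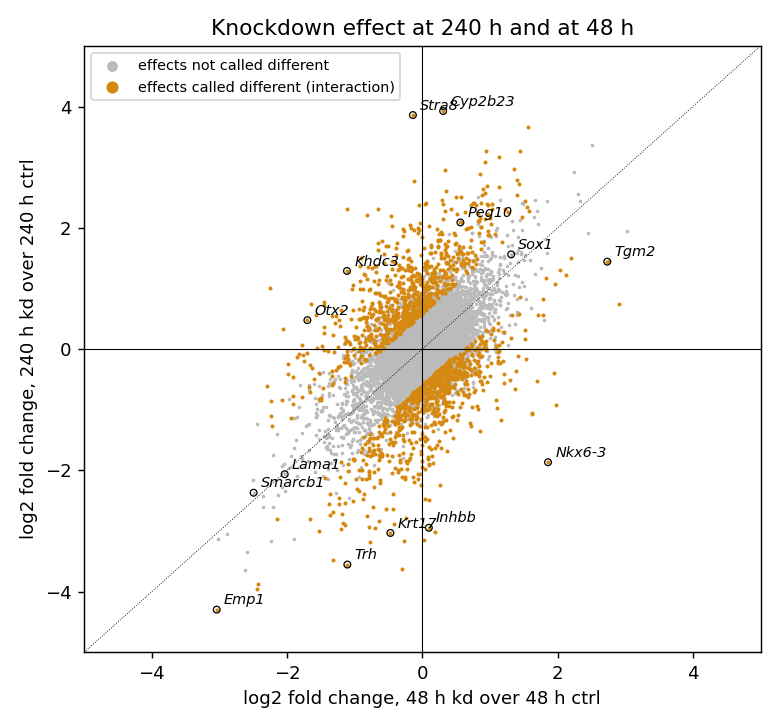
Log2 fold change of kd over ctrl at 48 h (x axis) and at 240 h (y axis) for the genes tested at both times, with the dotted line marking equal effects. Orange points are genes whose effects the interaction term called different. Smarcb1, Lama1 and Sox1 lie near the line, Stra8 and Inhbb far from it near x = 0, and Nkx6-3 in the quadrant of a rise at 48 h and a fall at 240 h.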

How the data were processed

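RNA of 15 libraries was sequenced by the submitters as single reads, and the 6 libraries at 240 h were compared here. The authors deposited a table per library with FPKM for 55228 genes over whole gene spans on mm10, and per the labels and the submitters' processing notes STAR 2.7.0c was used. FPKM values were turned back into reads by multiplying by the span and dividing by the smallest product above 0, and 100% of values were whole within 0.001. Recovered reads summed over genes exceeded the library total by 7.38% to 8.34%, because overlapping genes share reads, and totals are those of the FPKM scale. The test took genes averaging 10 or more reads. A minimum on reads was used because FPKM over spans favours short genes.

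Log2(RPM + 0.1), with RPM the recovered reads scaled by library depth, was tested with limma 3.58.1 (lmFit, then eBayes with trend, in R 4.3.3, two-sided, Benjamini-Hochberg over all genes tested). Calls needed adjusted p under 0.05 with a log2 fold change beyond 0.58 in size, and fold changes on this scale understate low genes. The interaction and the ctrl comparison used the same test. Tables and figures were made with Python 3.11.15, numpy 2.4.6, pandas 2.3.3 and matplotlib 3.10.9, and the fit was tested on simulated data.

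Groups came from the labels. Genes were named by rule: the given markers, the 10 largest rises and falls among called protein-coding genes without overlapping groups and the 5 largest interactions in each direction, all protein-coding, averaging 100 or more reads over the libraries compared and without predicted genes, and any list member. A few genes are not reported here. The members and lists were chosen with earlier results of these data known. Gene types came from GENCODE M21 (53297 of 55228 genes matched, 96.5%) and promoters from RefSeq (GRCm38.p6). Alternatives covered pseudocount, filter, scale, test, scaling, variance trend, libraries in the fit, replicate block, control group, thresholds and each library left out.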

Additional observations from a re-analysis of the deposited data

Results flagged for a closer look

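The effect of knockdown differed between 240 h and 48 h in 1727 of 16403 genes by the interaction term (limma, adjusted p under 0.05 and an absolute difference above 0.58 on the log2 scale). Values in parentheses are the effect at 240 h minus that at 48 h, so a positive value means that the effect was higher at 240 h. The genes are grouped by what they encode, and no cause of a difference was tested.

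Among regulators of DNA methylation and chromatin, the differences were in Dnmt3l (1.24), Dnmt3a (1.23), Aebp2 (1.21), Tet2 (-1.07) and Dnmt3b (0.99). For imprinted and neighbouring genes they were Slc22a18 (-2.50), Peg12 (2.43), H19 (2.40), Peg10 (1.53), Dlk1 (1.45), Igf2 (1.41) and Sgce (0.97). In the group of germline and maternal genes the test called Stra8 (4.0), Khdc3 (2.40), Taf7l (1.65), Tdrd1 (1.37), Tle6 (1.34) and Dppa3 (0.66). Of pluripotency and epiblast genes, those called were Fgf5 (2.77), Otx2 (2.18), Prdm14 (-0.98), Sall2 (0.93) and Esrrb (-0.64). Among keratins, the differences were in Krt7 (3.40), Krt17 (-2.56), Krt18 (2.16), Krt8 (1.66), Krt42 (-1.06) and Krt19 (0.95). For genes of adhesion, junctions and matrix they were Ildr1 (-2.40), Thbs2 (1.82), Cdh2 (1.64), Fn1 (-1.59), Pcdh7 (1.33), Cldn4 (-1.07), Col1a1 (1.07), Cdh3 (-0.84), Tjp3 (-0.83), Dsg2 (-0.81), P3h4 (-0.74), Cdh1 (-0.67) and Fkbp10 (-0.59). In the group of cytoskeletal genes the test called Cobl (-2.24), Vim (1.61), Tagln (1.54), Ablim1 (-1.45), Myl9 (1.30) and Coro2b (-0.66). Of signalling genes, those called were Inhbb (-3.04), Id3 (2.28), Smad6 (1.46), Tgm2 (-1.29), Pim3 (-0.85), Spry1 (-0.63), Rara (-0.61), Dusp6 (0.59) and Bcl3 (0.59).

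Among neural and guidance genes, the differences were in Csrnp3 (-2.47), Neurog3 (1.74), Nes (1.10), Nrp2 (-1.05), Robo1 (-1.05), Nefl (-0.94), Hap1 (-0.94), Slit2 (-0.80), Gap43 (-0.79), Sema3e (0.71), Efnb2 (0.70) and Insm1 (0.70). For developmental regulators they were Nkx6-3 (-3.72), Gata6 (1.37) and Tead4 (-1.37). In the group of cell cycle and metabolic genes the test called Cdkn2a (1.18), Ccnd1 (-0.74), Mycl (-0.68), Hk2 (-0.62) and Rb1 (0.60). Of carbonic anhydrases and the PMP22 family, those called were Pmp22 (3.08), Car4 (2.03), Car2 (1.27), Emp1 (-1.26) and Car3 (0.59). Among neuropeptide genes, the differences were in Trh (-2.45), Pcsk2 (2.24) and Cpe (-1.94). For genes of immunity, blood and vessels they were Vwf (-2.89), Lgals9 (-2.55), Laptm5 (-1.70), Tap1 (1.14) and Bst2 (0.62). In the group of the nephrin family the test called Kirrel2 (-1.74) and Nphs1 (-1.47). The remaining named genes were Cyp2b23 (3.62), Gm40663 (3.42), Mep1b (2.66), Serpinb6c (-2.59), Serpina3m (2.26), Slc22a22 (2.16), Shisa6 (1.67), Prtg (1.65) and Clca3b (0.92). Genes with at most 4 reads in any 240 h ctrl library, or with 8 at most as in Hand1, Gm40663 and Neurog3, have fitted differences that depend on the pseudocount and are no bounds. Beside Gm40663 and Neurog3 above they were Cyp24a1 (5.86), Cyp26a1 (5.08), Hand1 (4.26), Zscan4d (3.81) and Acta2 (2.96). Krt7, Dlk1 and Slc22a18 above were also tested at 240 h only through the group in which they were high. Their differences rest on few reads in the other group, ctrl for Krt7 and Dlk1 and kd for Slc22a18.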

How the results depend on the processing

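The 2946 calls at 240 h became 1016 of 11401 genes on log2(FPKM + 0.1) with a mean of at least 0.5 FPKM, 1663 of 12671 genes with a minimum of 50 reads, and 1367 with a log2 limit of 1. Without genes that overlap another listed gene they were 1978 of 9550, by construction fewer. They numbered 2320 to 3703 under the other alternatives, 2696 to 2981 when 1 library was left out. The share of higher calls, 55.1%, ranged from 50.6% with a minimum of 50 reads to 59.1% without overlapping genes. It was 50.7% after quantile normalization and 59.0% with no minimum. The interaction count of 1727 was 664 on log2 FPKM and 1489 to 1777 with 1 library left out. The 221 calls between the ctrl groups were 118 with a pseudocount of 1, 107 with a minimum of 50 reads, 54 on log2 FPKM, 95 to 308 with 1 library left out, and 0 without a trend in the prior variance. In that limma fit 3905 genes had an unadjusted p under 0.05, and limma voom called 220. Apart from the minimum of 50 reads, the number of genes tested on log2 FPKM and the higher limit, which remove genes by construction, the cause was not tested. The alternatives for the comparison of the ctrl groups were chosen after seeing the data.

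Replicate numbers did not pair the libraries: same-numbered ctrl and kd deviations had correlations of 0.103, -0.0049 and -0.0092. With the replicate number as a block, 2960 genes were called at 240 h, 1702 by the interaction and 333 between the ctrl groups.

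None of the named genes called at 240 h changed direction under the alternatives run, while Dnmt1, Smarca4 and Sycp3, which were not called, changed sign in at least 1. Named genes were followed in 189 combinations of a gene and a comparison, the 240 h effect or the interaction. Of their 3829 values, 3731 stayed on their side of the threshold, 95 lost the call and 3 gained one. A gene that an alternative filtered out gave no value there. The median changed sign under at least 1 alternative in 13 lists, among them DNA methylation (from -0.09 to 0.08 against 48 h ctrl) and primitive endoderm (from 0.47 to -0.18 on log2 FPKM). Depth limits genes near the minimum of 10 reads, and FPKM over whole spans does not separate exons from introns.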

Other observations

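Carbonic anhydrases, which interconvert carbon dioxide and bicarbonate, rose in 5 of 13 genes tested and fell in 1. Car2, the widespread cytosolic enzyme, had 1401, 1412 and 1685 reads in ctrl and 6997, 8489 and 7811 in kd, log2 fold change 2.24 (SE 0.06, limma adjusted p = 9.13e-15). Car3 rose from 43, 50 and 57 to 179, 206 and 186 reads (1.77), Car10 and Car14 rose by 1.32 and 0.84, and Car12 fell by 0.84. The groups did not overlap in these genes, as was the case in 2885 of all 2946 called genes. Car14 overlaps Aph1a and had a log2 fold change of 0.33 against the 48 h ctrl libraries.

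Of 17 interferon-linked genes, 4 rose, 1 of them tested only through its kd reads, and 2 fell. Tap1, a transporter for antigen peptides, had 28, 31 and 31 reads in ctrl and 116, 157 and 140 in kd (2.01, SE 0.15, limma adjusted p = 7.14e-09), and its span overlaps Psmb9. Bst2 (tetherin) rose from 378, 397 and 438 to 1027, 1198 and 1190 reads (1.35, SE 0.06, adjusted p = 1.62e-11). The groups were separate in Tap1 and Bst2, as was the case in 2885 of all 2946 called genes. In the PMP22 family Pmp22 had 5, 14 and 11 reads in ctrl and 40, 37 and 55 in kd, opposite in direction to Emp1, and Emp3 rose by 0.95, a call lost without ctrl replicate 1 (0.54) or kd replicate 2 (0.87), on log2 FPKM (0.83) and without the variance trend (0.95, adjusted p = 0.0841). In the nephrin family Kirrel rose by 0.82 while Kirrel2 and Nphs1 fell. Vwf, of endothelium and platelets, fell from 121, 91 and 86 reads to 14, 9 and 10 (adjusted p = 4.29e-09), and Tek from 137, 154 and 132 to 60, 61 and 59 (adjusted p = 1.56e-07).

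Calls were unevenly spread over kinds of genes. Of 827 genes with a span over 200 kb, 33.6% were called, 172 higher and 106 lower, against 15% to 19.2% in the shorter classes. Of 400 lincRNA genes, 33.3% were called, and of 13642 protein-coding genes 17.3%. By chromosome the share ran from 13.8% on chromosome 12 to 22.9% on chromosome 6, with 21.6% on X. Genes of a class are not independent, and these shares were not tested.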
